A study of Arabidopsis thaliana with 14 samples.

Results

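IQD30 (AT1G18840) and SP1L4 (AT5G15600) are a pair of Arabidopsis thaliana genes whose protein families are tied to microtubules. They were taken as the probe sets annotated to these loci. There is 1 probe set for each, so 2 genes of the 13333 loci that a probe set names alone are described here. Both were picked with their signals on these arrays known, from how they differed between the groups. Their levels and differences are therefore given as a description, with no test.

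Microtubules are hollow filaments of tubulin. In plant cells an array of them under the plasma membrane guides where cellulose is laid down, and so the direction in which a leaf cell grows. SP1L4 belongs to the SPIRAL1 family of small proteins, named after SPR1, which binds microtubules and keeps the growth of organs straight. IQD30 belongs to the IQ67-domain proteins, which bind calmodulin, the calcium sensor, and many of which lie on microtubules or in the nucleus. CAMTA5, the gene altered in this study, encodes a transcription activator that also binds calmodulin.

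Leaf RNA of 1-month-old plants was hybridised to 14 ATH1 arrays, 1 array for each sample, and all lines have the Col-0 background. The CAMTA5 overexpression line OX-5, written OX5 here, was sampled after 14 days of drought (2 arrays). The mutant line camta5-a, written camta5, was sampled after 14 days of drought (3 arrays) and with water (3 arrays), and so was wild-type Col-0 (3 and 3 arrays). The promoter of the OX5 transgene, the lesion of camta5-a and whether OX-5 is a single clone are not given in the sources used here. No watered OX5 group was analysed here, so for OX5 the line and its response to drought cannot be told apart. The labels call the replicates biological. They do not say whether each came from plants of its own, so the p-values rest on a spread that may be partly technical.

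The OX5 arrays stood apart. Their Spearman coefficients with the other 12 arrays, across probe sets, were 0.805 to 0.865, against 0.896 to 0.960 among those 12. CAMTA5 itself (AT4G16150) had signals of 290 to 402 in OX5, 265 to 306 in camta5 and 146 to 232 in Col-0 after drought, and 154 to 191 in camta5 and 115 to 179 in Col-0 with water. It was thus not lower on the arrays labelled camta5, and where its probe set lies relative to the lesion is not given, so it does not check that label. In OX5 it lay above droughted Col-0, with a mean of 346 against 198, but overlapped droughted camta5, with a mean of 285. It is therefore no clear check of the overexpression label either. For camta5 water replicate 1 the genotype entry reads wild type, against its title, by which it was grouped. RCA (Rubisco activase), the 1 measured gene of 11 leaf markers, was bright on every array, at 28324 to 41941. Of 6 root markers 2 were measured under the listed name, and none of the 6 flower or 6 seed markers. PRX44, another root marker, has a probe set but was left out because the annotation used did not hold that name. The summed signal of PYK10, a root beta-glucosidase, and EXPA7, a root hair expansin, was 15 to 158 in OX5, 65.9 to 117 in camta5 and 65.2 to 91.7 in Col-0 after drought, and 21.1 to 48.2 in camta5 and 27.0 to 40.3 in Col-0 with water. The sum was higher after drought in camta5 and Col-0, but the markers went opposite ways. PYK10 averaged 89.2 in camta5 and 77.1 in Col-0 after drought, against 14.3 in camta5 and 15.2 in Col-0 with water. EXPA7, which did not pass the filter on dim signals described below, averaged 4.85 in camta5 and 5.38 in Col-0 after drought, against 22.7 in camta5 and 16.5 in Col-0 with water. Their part in the drought differences below was not tested.

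IQD30 was brightest in droughted Col-0 leaves and near the floor of the scale in droughted OX5 leaves. In OX5 its signal was 4.73 and 4.84 on the 2 drought arrays. In camta5 it was 174, 208 and 106 after drought, and 78.4, 115 and 95.9 with water. In Col-0 it was 293, 549 and 585 after drought, and 122, 162 and 132 with water. Every Col-0 drought array lay above all other arrays, and both OX5 arrays lay below all others. The camta5 drought arrays lay between them, and the signal of 106 on camta5 drought replicate 3 fell among those of the watered camta5 plants. The share of probe sets whose Col-0 drought arrays all lie above the other arrays was not computed.

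The order of the group means was Col-0 drought, camta5 drought, Col-0 water, camta5 water and OX5 drought. Of groups next to each other in this order, only camta5 drought and Col-0 water overlapped, with means 0.17 apart on the log2 scale. The camta5 drought range also overlapped that of camta5 water. The watered groups did not overlap, but lay only 0.46 apart. The share of probe sets whose watered groups lie apart was not computed, and the limma tests described below called 0 of 15646 between them. The pattern of every Col-0 drought array above, and every OX5 array below, each watered Col-0 array was shared by 639 of the 15646 probe sets tested (4.08%). All camta5 drought arrays lay below the Col-0 drought arrays and above the OX5 arrays, as for IQD30, at 3.5%. Both OX5 arrays lay below the other 12 at 19.1% of the probe sets, and above them at 20.4%. Since IQD30 was chosen for its values, these shares are given only as background.

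**Figure D1:**
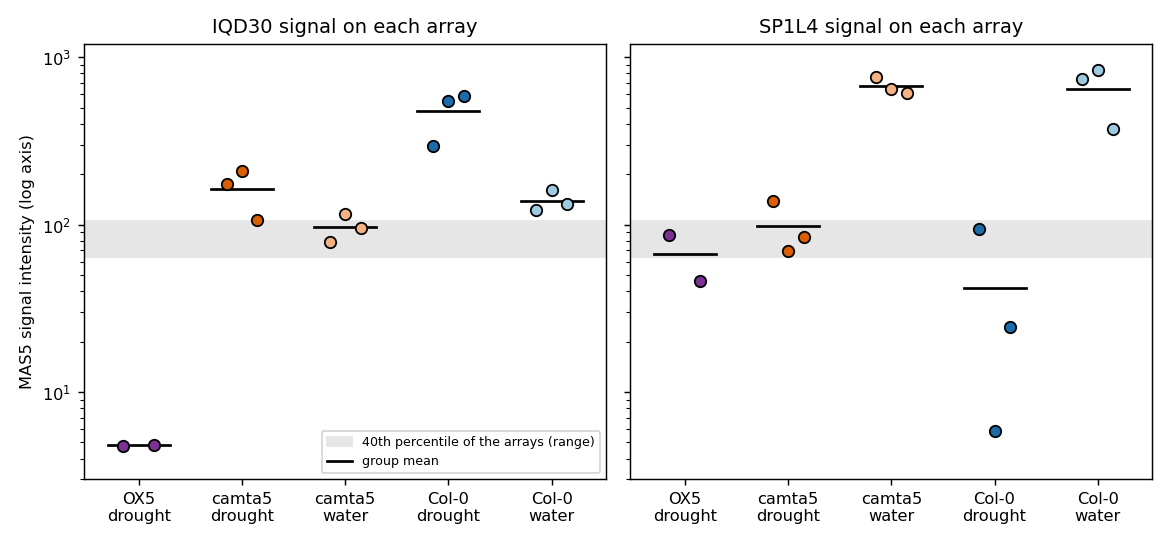
MAS5 signal (log axis) of IQD30 (left panel) and SP1L4 (right panel) on each of the 14 arrays by group. Points are arrays, black lines are group means, and the grey band spans the 40th percentiles of the arrays, 63.9 to 104. IQD30 lies at 4.73 and 4.84 in OX5 and at 293 to 585 in Col-0 drought, while SP1L4 lies at 371 to 834 on the watered arrays and at 5.82 to 139 on the drought arrays.

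SP1L4 was bright in watered leaves of camta5 and Col-0, and dim in droughted leaves of all 3 lines. For OX5 there were no watered arrays to compare with. In OX5 its signal was 86.6 and 46.1 after drought. In camta5 it was 139, 69.9 and 83.9 after drought, and 758, 649 and 610 with water. In Col-0 it was 94.6, 5.82 and 24.5 after drought, and 743, 834 and 371 with water. All 8 drought arrays lay below all 6 water arrays, with no overlap. This held for 855 of the 15646 probe sets tested (5.46%), and the opposite for 6.28%.

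Among the droughted groups the SP1L4 arrays overlapped, so their order (camta5, OX5, Col-0, with means of 6.78, 6.32 and 5.53 on the log2 scale) did not exceed the spread. The watered groups overlapped too, at 672 ± 76.9 in camta5 and 649 ± 245 in Col-0 (SD, n = 3 each). The droughted Col-0 arrays were the most scattered, with a highest signal 16.3 times the lowest, against 1.99 times in droughted camta5 and 1.88 times in droughted OX5. Col-0 drought replicate 2, at 5.82, was the array far below the rest.

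Both genes passed the filter on dim signals, which kept probe sets brighter than the 40th percentile of an array on 2 or more arrays. IQD30 exceeded it on 12 arrays and SP1L4 on 10. For IQD30 the arrays that did not were both of OX5, and for SP1L4 these and Col-0 drought replicates 2 and 3. That percentile stood at 104 and 88.8 on the OX5 arrays, against 63.9 to 74.5 on the others. The 2 IQD30 signals in OX5 were higher than those of 5.53% and 9.36% of the probe sets on their arrays. Those of SP1L4 in OX5 were higher than 35.1% and 26.9%. SP1L4 in Col-0 drought replicate 2 was higher than 12.9%. MAS5 signals so near the floor are noisy, and detection calls were not used here. Fewer cells with the transcript and less of it per cell cannot be told apart in whole-leaf RNA.

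On the scale of log2(signal + 16), with standard errors from a limma fit of 1 mean per group whose spread is shared by all 5 groups, IQD30 was 4.50 ± 0.33 lower in OX5 than in Col-0 after drought. The means of the log2 values were 4.38 and 8.88. Against camta5 after drought the OX5 difference was -3.06 ± 0.33. These sizes depend on the offset, because the OX5 signals lie below 16. With an offset of 1 they were -6.30 and -4.77, and with an offset of 64 -2.92 and -1.69.

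Without OX5, the IQD30 differences were smaller. After drought camta5 was 1.44 ± 0.29 lower than Col-0, at 163 ± 52.0 against 475 ± 159 (SD, n = 3 each). With 1 array left out this difference was -1.75 to -1.19. Its SE is shared by groups whose log2 SD was 0.0053 in OX5, 0.45 in droughted camta5 and 0.53 in droughted Col-0. With water the difference of camta5 from Col-0 was -0.46 ± 0.29. Drought against water gave 0.64 ± 0.29 in camta5 and 1.62 ± 0.29 in Col-0, and the difference between these responses was -0.98 ± 0.42, which was not tested. Counting camta5 water replicate 1 as Col-0 water made the watered difference -0.17 ± 0.34.

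For SP1L4 the large differences were those with drought. Drought against water gave -2.64 ± 0.47 in camta5 and -3.77 ± 0.47 in Col-0, where the mean signals were 97.7 against 672 and 41.6 against 649. The difference between the 2 responses was 1.13 ± 0.66. After drought camta5 minus Col-0 was 1.26 ± 0.47, OX5 minus Col-0 was 0.79 ± 0.53 and OX5 minus camta5 was -0.46 ± 0.53. Each of these moved with single arrays. Without Col-0 drought replicate 2 camta5 minus Col-0 was 0.72, OX5 minus Col-0 was 0.25 and the difference between the responses was 0.59. Without Col-0 drought replicate 1 they were 1.89, 1.42 and 1.77, and the Col-0 drought difference was -4.40. OX5 minus camta5 was -0.83 without OX5 replicate 1 and -0.10 without OX5 replicate 2. The shared SE does not show that the SD of the log2 values was 1.18 in droughted Col-0 and 0.16 in watered camta5. The Col-0 drought difference was -4.59 with an offset of 1 and -2.78 with an offset of 64.

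**Figure D2:**
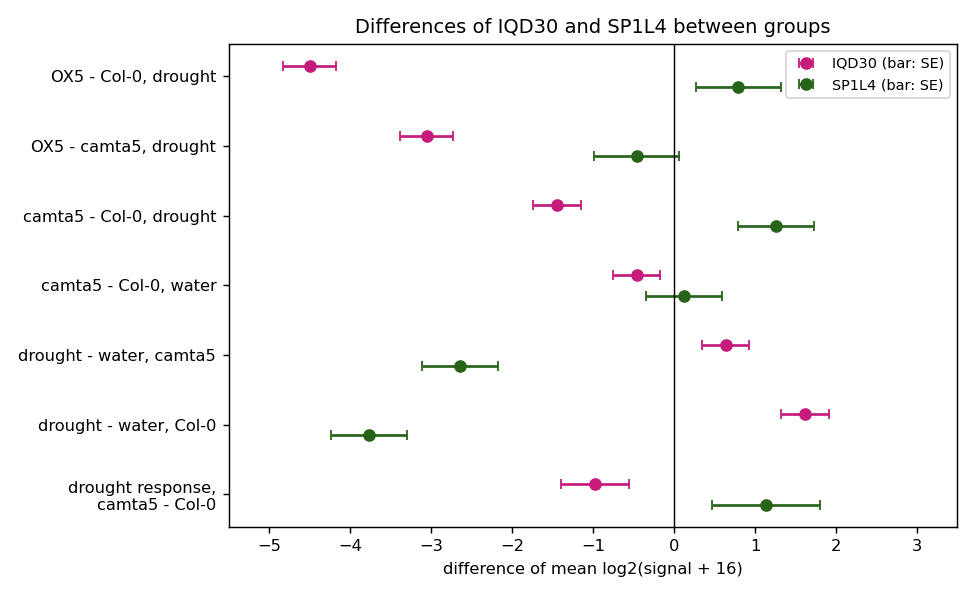
Differences of mean log2(signal + 16) between groups for IQD30 and SP1L4, with bars for the SE of the limma fit over 14 arrays. SP1L4 lies at -2.64 and -3.77 for drought against water, where IQD30 lies at 0.64 and 1.62. IQD30 lies at -4.50 for OX5 against Col-0, where SP1L4 lies at 0.79.

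With drought in Col-0 the arrays of both genes did not overlap between the groups, and IQD30 was higher and SP1L4 lower. In camta5 the SP1L4 arrays did not overlap either, but those of IQD30 did. The share of all probe sets that separate in this way within a line was not computed, so this is a description only. As a measure of how alike profiles are, the root mean square difference of the log2 values over the 14 arrays was used, with each gene centred on its own mean. Between IQD30 and SP1L4 it was 2.40. Of the 8527 other named probe sets tested, SP1L4 was number 8329 in likeness to IQD30.

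The profile most like that of IQD30 was that of SNZ (AT2G39250, SCHNARCHZAPFEN), an AP2-type transcription factor that represses flowering, with a root mean square difference of 0.40. SNZ had 4.88 to 6.77 in OX5, 166 to 223 in camta5 and 361 to 583 in Col-0 after drought, and 43.1 to 132 in camta5 and 143 to 161 in Col-0 with water. It was therefore also near the floor in OX5 and brightest in droughted Col-0. AT5G19875 (0.41), AT1G63420 (0.43), AT1G80130 (0.48) and AT3G51750 (0.50) followed. Without the OX5 arrays AT1G63420 was the nearest of all, with a root mean square difference of 0.21, and SNZ was number 40.

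The profile most like that of SP1L4 was that of the thionin gene THI2.2 (AT5G36910, an antimicrobial peptide gene), at 0.56. THI2.2 had 25.7 to 89.8 in OX5, 46.7 to 130 in camta5 and 11.8 to 48.1 in Col-0 after drought, and 1042 to 1295 in camta5 and 679 to 1071 in Col-0 with water. Next came AT1G06830, AT5G55620 and AT3G16370 (each 0.59) and AT5G22580 (0.61). Each of these 5 genes, like SP1L4, was lowest of the Col-0 drought arrays on replicate 2. Without the OX5 arrays AT5G55620 was the nearest, at 0.36. These genes were ranked by likeness, so that they follow IQD30 or SP1L4 is no finding.

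**Figure D3:**
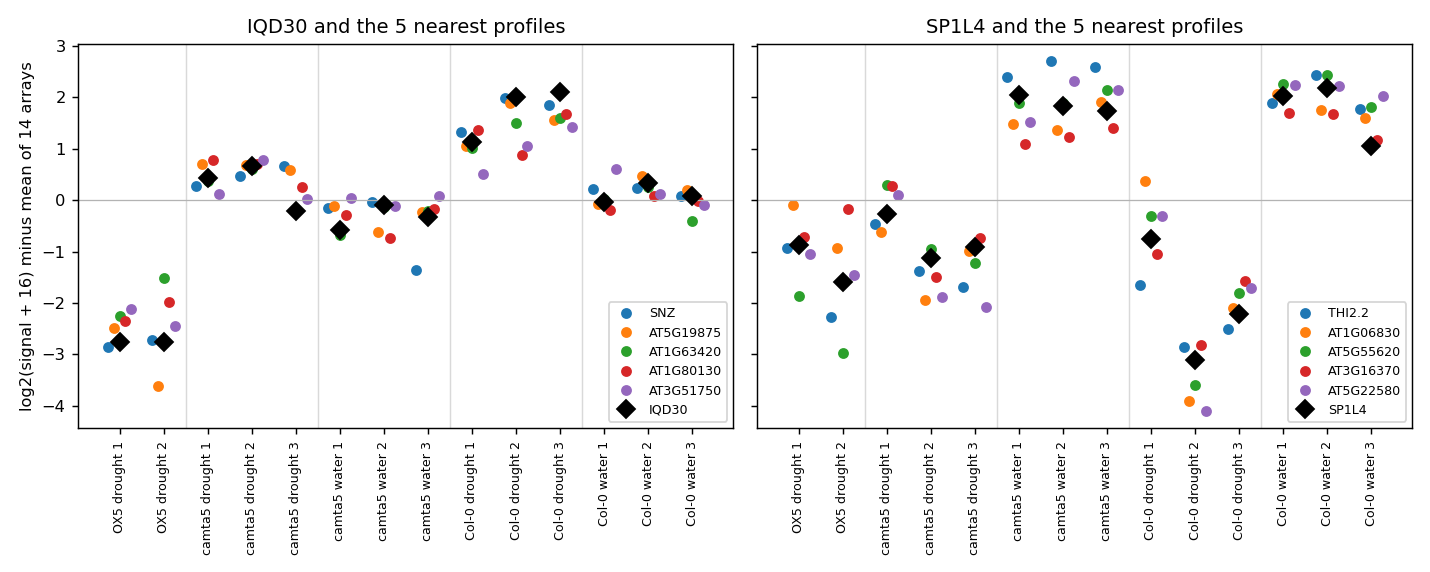
Centred log2(signal + 16) on each array for IQD30 and SP1L4 (black diamonds) and the 5 named probe sets with the smallest root mean square difference from each (coloured circles), with the groups divided by grey lines. For IQD30 these differences were 0.40 to 0.50 and for SP1L4 0.56 to 0.61. All 5 neighbours of SP1L4 lie lower on Col-0 drought replicate 2 than on replicates 1 and 3.

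Relatives in the SPIRAL1 and IQD families, tubulins, and microtubule-binding and severing proteins were taken from lists of 116 entries. For 28 genes besides IQD30 and SP1L4 there was a probe set naming that gene alone under the listed name, and 20 of these passed the filter. The lists of calmodulins and of primary wall cellulose synthase had no such gene. For these relatives a call is a limma adjusted p under 0.05 (Benjamini-Hochberg over all 15646 probe sets). Some tubulin genes are close copies, and cross-hybridisation between their probe sets was not examined.

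Of the SPIRAL1 family 4 other genes were measured, SPR1, SP1L2, SP1L3 and SP1L5, and 3 of them were tested. SP1L3 (AT3G02180) had signals of 580 ± 165 in camta5 and 579 ± 177 in Col-0 after drought, against 1142 ± 123 in camta5 and 1297 ± 236 in Col-0 with water (SD, n = 3 each). It fell by 0.99 ± 0.23 in camta5 (adjusted p = 0.0124, limma) and by 1.18 ± 0.23 in Col-0 (adjusted p = 0.00253, limma). In OX5 it was at 1380 ± 59.0 (n = 2), which is 1.28 ± 0.26 above droughted Col-0 (adjusted p = 0.00112, limma). SP1L4 on the same arrays overlapped with droughted Col-0. The camta5 call of SP1L3 ended without camta5 water replicate 3 or drought replicate 2 or 3 (adjusted p up to 0.059).

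SP1L2 (AT1G69230) was lower in OX5, at 14.8 and 52.5, than in droughted Col-0, at 115 ± 21.2 (n = 3), a difference of -1.5 ± 0.39 (adjusted p = 0.0055, limma). Without OX5 replicate 1 that call ended (-0.92, adjusted p = 0.0995). Its drought differences, 0.59 ± 0.35 in camta5 and -0.30 ± 0.35 in Col-0, were not called. The founding member SPR1 (AT2G03680) was bright in all groups, with means of 2016 to 2752, and was called in no comparison. Its drought differences were -0.13 ± 0.16 in camta5 and -0.12 ± 0.16 in Col-0. SP1L5 exceeded the 40th percentile on 1 array and was not tested. Its mean signals were 93.0 in OX5, 12.9 in camta5 and 19.4 in Col-0 after drought, and 48.9 in camta5 and 37.3 in Col-0 with water.

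Of the IQD family 14 other genes were measured and 8 tested. IQD15, IQD16, IQD18, IQD26, IQD27 and IQD33 did not pass the filter, with group means of 5.15 to 99.5. None of the tested IQD relatives was called higher after drought. IQD21 (AT3G49260) fell by 1.36 ± 0.27 in camta5 (adjusted p = 0.00532) and by 1.43 ± 0.27 in Col-0 (adjusted p = 0.00184), with mean signals of 145 against 392 in camta5 and 177 against 510 in Col-0. IQD31 (AT1G74690) fell by 0.98 ± 0.26 in camta5 (adjusted p = 0.0193), at 229 against 457, and by 0.80 ± 0.26 in Col-0 (adjusted p = 0.0308), at 305 against 536. IQD24 (AT5G07240) fell by 1.04 ± 0.29 in camta5 (adjusted p = 0.026), at 290 against 569. Its Col-0 difference was -0.24 ± 0.29, at 472 against 549, and the difference between these responses was not called. The drought differences of IQD19, IQD22, IQD23, IQD28 and IQD32 were not called, at -0.61 to 0.48 in camta5 and -1.29 to 0.37 in Col-0. Over the 5 groups the mean signals were 11.6 to 61.6 for IQD19, 40.5 to 291 for IQD22, 197 to 611 for IQD23, 115 to 190 for IQD28 and 285 to 379 for IQD32. By comparison IQD30, which was chosen for its values and not tested, stood at 0.64 in camta5 and 1.62 in Col-0. In camta5 its drought and water arrays overlapped.

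In OX5 against droughted Col-0, IQD22 (AT4G23060) was 2.45 ± 0.51 higher, at 291 ± 42.7 (n = 2) against 40.5 ± 9.51 (n = 3) (adjusted p = 0.00125, limma). IQD23 (AT5G62070) was at 197 ± 42.7 (n = 2) in OX5 against 373 ± 30.9 (n = 3), a difference of -0.88 ± 0.28 (adjusted p = 0.0173, limma), and that call ended without OX5 replicate 2 (adjusted p = 0.137). The other 6 tested relatives lay between -0.63 and 1.07 and were not called. IQD30, at -4.50, was further from 0 than any of them. Since it was chosen for its values, that is a description only.

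The tubulins, the subunits of the filament itself, were represented by 7 genes, of which 6 were tested. TUB5 (AT1G20010), a beta-tubulin gene, had signals of 1050 and 850 in OX5. In camta5 it was at 92.8 ± 65.6 after drought against 282 ± 89.4 with water, and in Col-0 at 63.8 ± 30.9 against 410 ± 23.9 (SD, n = 3 each). With drought it differed by -1.69 ± 0.47 in camta5 (adjusted p = 0.0257, limma) and by -2.49 ± 0.47 in Col-0 (adjusted p = 0.00175, limma), and it was 3.67 ± 0.52 higher in OX5 than in droughted Col-0 (adjusted p = 5.58e-05, limma). The camta5 value leaned on camta5 drought replicate 3, at 17.2 against 126 and 135 on the other drought arrays of that line. Without it the difference was -0.97 (adjusted p = 0.0721, limma), and the call also ended without camta5 water replicate 2 or 3 (adjusted p up to 0.0931). With all arrays TUB5 thus fell with drought, as the SP1L4 means did, but OX5 differed in the opposite direction to IQD30. TUB7 (AT2G29550) fell by 0.69 ± 0.19 in camta5 and by 0.90 ± 0.19 in Col-0, and TUA6 (AT4G14960), an alpha-tubulin gene, fell by 0.45 ± 0.14 in Col-0. In camta5 TUA6 differed by -0.39 ± 0.14, which was not called (adjusted p = 0.061, limma).

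In OX5 against droughted Col-0, TUA1 (AT1G64740) and TUA6 were 1.08 ± 0.22 and 1.03 ± 0.15 higher, TUB7 was 0.70 ± 0.22 higher and TUB6 (AT5G12250) fell by 0.89 ± 0.23. TUB9 was called in no comparison, and TUB1 did not pass the filter. The calls of TUB6 and TUB7 in OX5 ended without OX5 replicate 2 (adjusted p = 0.0576 and 0.155). MAP65-6 (AT2G01910), of a family that bundles microtubules, was 1.5 ± 0.24 higher in OX5 than in droughted Col-0 (adjusted p = 0.000135, limma), at 1125 ± 110 (n = 2) against 391 ± 75.3 (n = 3). TON1B, which helps to place microtubules before division, and WDL3, which binds microtubules, were not called there.

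**Figure D4:**
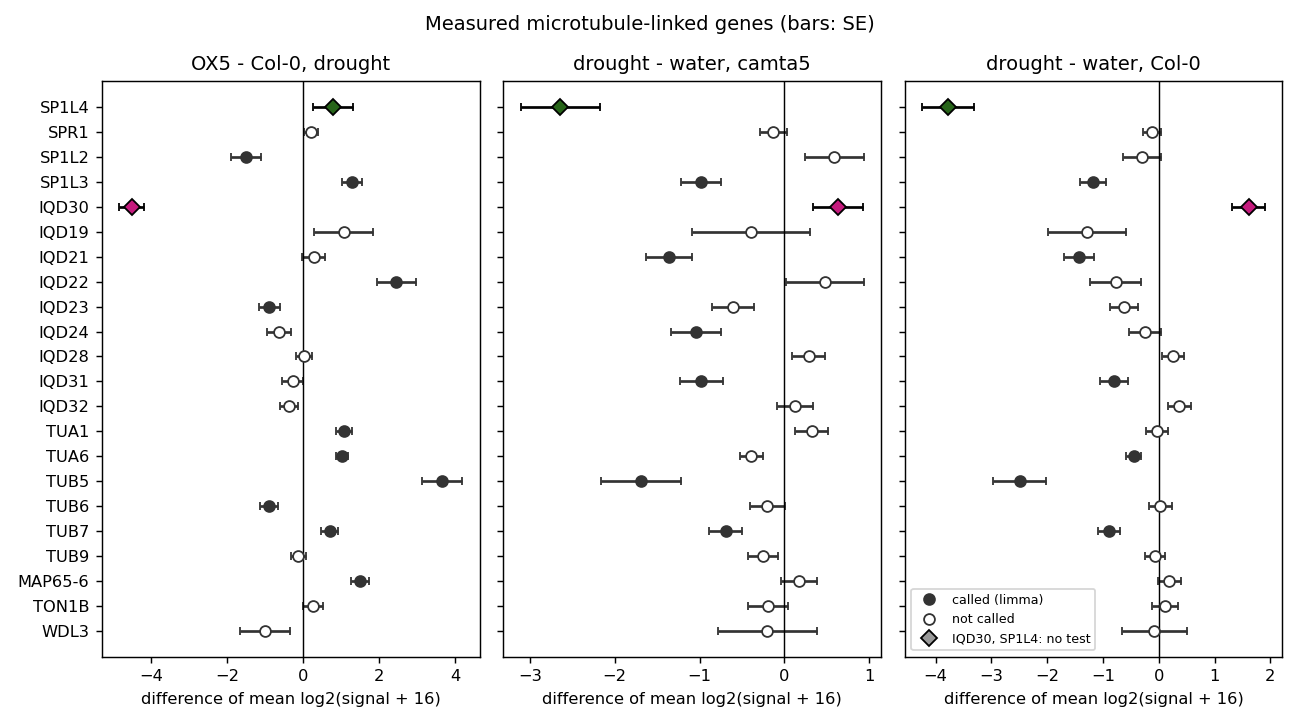
Differences of mean log2(signal + 16) for IQD30 and SP1L4 (diamonds, with no test) and the 20 tested relatives (circles, filled where limma called them), with bars for the SE. Of the relatives 6 were called lower after drought in camta5 and 6 in Col-0, and none higher, while in OX5 against Col-0 7 were called higher and 3 lower. Each panel has its own horizontal range.

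Over all 20 tested relatives, 6 were lower and 0 higher after drought in camta5, with a median difference of -0.23, against 0.04 over all probe sets. In Col-0 too 6 were lower and 0 higher, with a median of -0.27, against 0.08. Both comparisons called 30% of the relatives. Of all probe sets, 16.3% were called in camta5 (8.67% higher and 7.61% lower) and 27.3% in Col-0 (15.6% higher and 11.7% lower). At an unadjusted p under 0.05, 8 relatives passed in camta5 and 7 in Col-0. The camta5 count rested on few arrays, being 1 without camta5 water replicate 3 or drought replicate 3, 2 without drought replicate 2 and 3 without water replicate 2. Of those 6 calls that of IQD21 held whichever array was left out. In Col-0 the count was 4 without Col-0 drought replicate 2, and IQD31 (adjusted p up to 0.155) and TUA6 (up to 0.0817) lost their calls.

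Between OX5 and Col-0 after drought 7 relatives were higher and 3 lower (50%), with a median of 0.23, against -0.04 over all probe sets. The background was 46.7% called, 21.7% higher and 25% lower, so the share of relatives called was near that of all probe sets. Between OX5 and camta5 after drought 7 were higher and 3 lower as well (50%, median 0.52), with 42.6% of all probe sets called, 20.2% higher and 22.5% lower. There TUB5 was 3.43 ± 0.52 higher, MAP65-6 1.45 ± 0.24 higher, TUA6 1.22 ± 0.15 higher and TUA1 0.77 ± 0.22 higher. Without OX5 replicate 2 these 10 calls were 5. The OX5 comparisons with Col-0 and with camta5 share the OX5 arrays.

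Between camta5 and Col-0 limma called 0 of the 20 relatives, with water or after drought, and 0 in the difference of the drought responses. At an unadjusted p under 0.05 these counts were 0 with water, 2 after drought (IQD22 at 1.36 ± 0.46 and IQD24 at -0.74 ± 0.29) and 0 for the difference of the responses. Both of those values moved with single arrays of droughted camta5. IQD22 had signals of 116, 47.6 and 337 there, and its difference was 0.71 without replicate 3 (adjusted p = 0.491, limma) and 1.95 without replicate 2 (adjusted p = 0.028, limma). That of IQD24 was -1.11 without replicate 1 (adjusted p = 0.0405, limma). Of all probe sets, 0% were called with water, 1.46% after drought (1.02% higher and 0.441% lower) and 0% for the difference of the responses. The median differences of the relatives were -0.20 with water and -0.18 after drought, against 0.01 and -0.03 over all probe sets.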

How the data were processed

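The authors deposited MAS5 signal intensities on a linear scale. The submitters' processing notes name Affymetrix Expression Console and no version. Every array had a mean of 500.05 over its 22810 probe sets once the top and bottom 2% were dropped. Precision is limited by the number of arrays. Probe sets were named through the platform annotation, updated by Entrez number from a RefSeq table (TAIR10.1). Of them 13513 name 1 gene, and 13436 of these matched. Coordinates were not used here.

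Values were taken as log2(signal + 16), which understates the change of dim genes. Of the probe sets other than 64 controls, 15646 were brighter than the 40th percentile of an array on 2 or more arrays and were tested, and the other 7100 were not. A single limma 3.58.1 model (R 4.3.3) over the 14 arrays estimated 1 mean per group, moderated with a trend. Tests were two-sided, with Benjamini-Hochberg adjustment over all probe sets in each of 7 comparisons, and the fit was tested on simulated data. The genes described, the lists and the tests were chosen with earlier results of these data known. The rule named IQD30 and SP1L4, every measured SPIRAL1 and IQD gene, up to 4 called genes of the other lists with the largest differences in each comparison, the 5 nearest profiles, and CAMTA5. TUB1, TUB6, TUB9, TON1B and WDL3, and TUB7 in OX5, lay outside the rule and were named, to complete their lists, after their values were seen. Where a gene has several probe sets, the one with the highest mean was used. Of 116 list entries 10 were left out because the RefSeq table did not hold the listed name for the locus. Of these, 8 have a probe set naming 1 gene. Alternatives were an offset of 1 or 64, quantile normalization, centring on the median, only the arrays compared, the replicate block, each array left out, the other grouping of camta5 water replicate 1, no filter, no trend and, chosen after seeing the data, no OX5 arrays.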

Additional observations from a re-analysis of the deposited data

How the results depend on the processing

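The largest shifts in the differences of IQD30 and SP1L4 came with the offset. With an offset of 1 the SP1L4 difference of drought against water in Col-0 was -4.59 and the IQD30 differences of OX5 from Col-0 and from camta5 were -6.30 and -4.77. With an offset of 64 they were -2.78, -2.92 and -1.69. Their other 326 values across comparisons and settings stayed within 1 SD of the values above. That SD is of single arrays around their group means in the fit, 0.36 for IQD30 and 0.69 for SP1L4. By this wide bound the SP1L4 shifts with single arrays, given above, count as unmoved. The small SP1L4 difference between watered camta5 and Col-0 (0.12) changed sign, to -0.23 without Col-0 water replicate 3 and to -0.04 with camta5 water replicate 1 counted as Col-0. Centring on the median shifted all OX5 differences by -0.12 (from Col-0) and -0.14 (from camta5), and no call count of the relatives by more than 1. With 1 array left out, the number of relatives called was 1 to 8 for drought in camta5, 0 to 1 for camta5 against Col-0 after drought and 5 to 10 for OX5 against camta5. A fit of the arrays compared alone gave 6 for OX5 against camta5. These fits use fewer arrays, and other causes were not tested. Without the OX5 arrays both drought counts were 6. Of 26 same-numbered pairs of arrays 3 had correlated deviations over 0.1, and 5 of 52 others did. This count does not decide whether the replicate numbers pair the arrays. The highest correlations were between droughted Col-0 and camta5, at 0.23 for replicate 1 and 0.24 for replicate 2. For replicate 3 that correlation was -0.16. With the replicate number as a block the drought counts were 6 in camta5 and 7 in Col-0, those of OX5 were 10 against Col-0 and 8 against camta5, and IQD30 in OX5 against Col-0 was at -4.53. The call of TON1B in OX5 against camta5 (adjusted p = 0.0472, limma) ended when any of 12 arrays was left out and in 6 other settings (adjusted p up to 0.134). Outside the leave-one-out fits, calls also ended for TUA6 and TUB5 with drought (adjusted p up to 0.0663), IQD24 (0.0613) and, in OX5, TUB7, IQD23, TUA1 and TUB6 (up to 0.0767).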
